A study of Mus musculus with 9 samples.

Results

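The aryl hydrocarbon receptor and 6 genes that act with it or are known to respond to it were examined in adult mouse cardiac fibroblasts after knockdown of Gata4 or Tbx20. The 7 genes, Ahr, Arnt, Ahrr, Cyp1a1, Cyp1b1, Tiparp and Nqo1, were chosen by symbol from the 38924 gene IDs of the count table, and the wide spread of Cyp1a1 between libraries of a group was part of the reason for the choice. Their levels by group are therefore given as a description, and no p-value of these 7 genes is printed. Cells came from RosaCas9-EGFP mice on a C57BL/6 background, 8 to 10 weeks of age in the labels and up to 12 weeks in the study's general methods, which carry Cas9 and a green fluorescent protein from the Rosa26 locus, so that cells of every group, control included, made Cas9. Fibroblasts were grown for 3 days, sorted as CD90 positive cells without CD45 or CD31, replated for 6 days and transfected with guide RNAs, and RNA was taken at 72 hours. Control cells received scrambled guides, Gata4 KD cells 2 guides against Gata4, and Tbx20 KD cells 2 guides against Tbx20, with 3 libraries (a, b and c) in each group. The study's methods give no selection of edited cells after transfection, so a level is an average over edited and unedited cells.

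The aryl hydrocarbon receptor is a transcription factor that waits in the cytoplasm, bound to HSP90 chaperones, until a ligand such as a dioxin, a plant indole or a product of tryptophan reaches it. It then enters the nucleus, pairs with ARNT and binds DNA at the xenobiotic response element, whose core reads GCGTG. Cyp1a1 and Cyp1b1 encode monooxygenases that oxidize many of these ligands, Ahrr and Tiparp encode repressors of the receptor that are themselves induced by it, and Nqo1 encodes a quinone reductase that also answers to the oxidative stress factor NRF2. In the heart the receptor is known from dioxin toxicity and from development.

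To show what lies just before the start sites of 4 of the 7 genes, the bases upstream of them are printed, from RefSeq on GRCm38.p6. Each reads 5′ to 3′ on the strand of the gene, and the core GCGTG, or its reverse complement CACGC, is in capitals. The Cyp1a1 bases lie at chr9:57697363-57697612 (+), within the span of the gene but outside its exons in GENCODE, those of Ahrr at chr13:74292332-74292581 (-), those of Cyp1b1 at chr17:79715062-79715311 (-), and those of Nqo1 at chr8:107403207-107403455 (-).
Cyp1a1: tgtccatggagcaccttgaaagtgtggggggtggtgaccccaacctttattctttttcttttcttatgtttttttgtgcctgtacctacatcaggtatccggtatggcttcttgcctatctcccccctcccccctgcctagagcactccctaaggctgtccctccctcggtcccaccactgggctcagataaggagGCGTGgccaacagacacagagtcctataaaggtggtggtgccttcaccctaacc
Ahrr: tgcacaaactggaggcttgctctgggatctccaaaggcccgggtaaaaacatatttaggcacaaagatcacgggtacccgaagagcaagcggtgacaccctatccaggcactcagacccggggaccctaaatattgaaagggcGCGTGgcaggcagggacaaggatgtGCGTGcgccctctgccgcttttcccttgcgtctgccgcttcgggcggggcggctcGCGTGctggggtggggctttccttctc
Cyp1b1: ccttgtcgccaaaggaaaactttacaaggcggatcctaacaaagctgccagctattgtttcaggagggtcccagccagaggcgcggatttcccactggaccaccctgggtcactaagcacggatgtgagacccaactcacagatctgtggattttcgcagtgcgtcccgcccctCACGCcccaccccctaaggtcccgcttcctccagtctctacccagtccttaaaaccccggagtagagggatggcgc
Nqo1: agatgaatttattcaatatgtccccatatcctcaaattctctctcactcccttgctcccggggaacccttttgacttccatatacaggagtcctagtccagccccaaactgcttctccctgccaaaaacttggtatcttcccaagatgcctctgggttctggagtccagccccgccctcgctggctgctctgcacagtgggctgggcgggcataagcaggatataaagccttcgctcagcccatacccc
The core, searched on both strands, began 54 bases before the start site of Cyp1a1, at 107, 82 and 27 bases before that of Ahrr, and at 76 bases before that of Cyp1b1, there on the opposite strand. A longer form, TNGCGTG, which contains the core, was found only in the Ahrr window among these 4, starting 29 bases before the start site. The Nqo1 window held neither string, which says only that these letters are not in it. The core occurred in 28.16% and the longer form in 4.1% of 32851 promoter windows of 250 bases, so that a match to the core is common. Bases farther upstream were not searched, and binding of the receptor was not measured. Of the 7 genes 6 had an entry in the promoter table, Ahr being the exception. The Tiparp window, which lies wholly in annotated exons and is not printed, held 1 match to the core and 0 to the longer form. The Arnt window (chr3:95434140-95434387) held the core at 29 bases before the start site.

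Between 31214828 and 41950397 counts were assigned per library (median 36270725), and 14782 genes passed the filter on low counts over all 9 libraries. Expression is given as CPM, counts relative to the library total after scaling by TMM factors. Gata4 was 162 ± 6.83 CPM (SD, n = 3) in control, 55.4 ± 9.48 in Gata4 KD and 189 ± 10.4 in Tbx20 KD libraries, and Tbx20 was 1002 ± 278, 698 ± 199 and 391 ± 61.8 CPM in the same order. All 8 fibroblast markers examined had a mean above 1 CPM over the 9 libraries, with summed levels of 6655 to 10749 CPM. In single libraries Lum ranged from 0.523 CPM in Gata4 KD b to 4.04 CPM in Gata4 KD c. Cardiomyocyte markers summed to 0.802 to 2.03 CPM, with Nppa and Pln at 0, leukocyte markers to 26.0 to 56.8 CPM, endothelial markers to 41.5 to 61.3 CPM, and smooth muscle and pericyte markers to 1245 to 1863 CPM. Mesothelial markers summed to 26.2 to 50.3 CPM in control, 9.91 to 17.9 in Gata4 KD and 27.9 to 44.9 in Tbx20 KD libraries. In such bulk libraries fewer cells of a type and less RNA per cell cannot be told apart.

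All 7 genes passed the filter on low counts. Per exon length, as RPKM (CPM per kilobase of exon), their mean levels over 9 libraries fell in the order Cyp1b1, Nqo1, Tiparp, Arnt, Cyp1a1, Ahr and Ahrr. Cyp1b1 stood at 167 ± 22.8 RPKM (SD, n = 9), above 98.4% of the genes kept, and Nqo1 at 83.1 ± 20.6 RPKM. Tiparp was 15.7 ± 4.45, Arnt 9.03 ± 0.598, Cyp1a1 7.63 ± 3.68 and Ahr 6.89 ± 0.704 RPKM, and Ahrr was lowest with 1.37 ± 0.565 RPKM, above 28.8% of the genes kept. The ranges of neighbours in this order did not overlap, except those of Arnt and Cyp1a1 and of Cyp1a1 and Ahr, which do not differ beyond their spread. Per exon length Cyp1a1, the gene most often used to report receptor activity, was expressed at about the level of the receptor, while its relative Cyp1b1 had the highest level of the 7 genes.

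Ahr and its partner Arnt were steady. Ahr (chr12:35497974-35535038 on the minus strand) was 38.0, 49.9 and 40.4 CPM in control libraries a, b and c, 43.4, 48.8 and 41.7 CPM in Gata4 KD libraries, and 42.1, 40.5 and 37.4 CPM in Tbx20 KD libraries. The 3 groups overlapped, and control library b and Gata4 KD library b were the highest. Arnt (chr3:95434388-95497240, plus strand), the partner with which the receptor binds DNA, was 74.3, 79.9 and 65.8 CPM in control, 67.1, 69.7 and 78.5 CPM in Gata4 KD, and 69.6, 73.2 and 72.7 CPM in Tbx20 KD libraries a, b and c. Its highest value in any library was control b, and again all groups overlapped. The SD of log2 CPM within groups was 0.15 for Ahr and 0.11 for Arnt, beside a median of 0.15 over all 14782 genes.

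Cyp1a1 (chr9:57687928-57703824, plus strand) varied more within groups than nearly every other gene. It was 27.8, 14.8 and 34.2 CPM in control libraries a, b and c, 23.9, 34.6 and 7.77 CPM in Gata4 KD libraries, and 25.6, 9.18 and 13.5 CPM in Tbx20 KD libraries. Each group held at least 1 library above 25 CPM and at least 1 below 15 CPM, and the groups overlapped throughout. The highest library exceeded the lowest by 2.31-fold in control, 4.45-fold in Gata4 KD and 2.78-fold in Tbx20 KD. The ratio was 1.23 in control without library b, 1.45 in Gata4 KD without library c, and 1.47 in Tbx20 KD without library a. Counting error was small beside this, since the 281 counts of Gata4 KD library c gave an exact Poisson interval (95%, counting error only) of 6.89 to 8.74 CPM and the 1256 counts of library b an interval of 32.7 to 36.5 CPM. The SD of log2 CPM within groups was 0.85, and 98.7% of genes had a smaller one. Of the 75-base windows of its transcripts 2.32% also occurred in another gene, while the other 6 genes shared none.

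The repressors Ahrr and Tiparp were also uneven between libraries. Ahrr (chr13:74211118-74292331, minus strand), which competes with the receptor for ARNT, was 12.6, 10.1 and 13.1 CPM in control libraries a, b and c. It was 17.5, 24.5 and 8.58 CPM in Gata4 KD and 13.6, 7.77 and 8.63 CPM in Tbx20 KD libraries. Gata4 KD libraries a and b lay above all others, but library c of the same group lay below every control library. Tiparp (chr3:65528410-65555518, plus strand), an enzyme that ADP-ribosylates the receptor, was 64.7, 66.5 and 61.1 CPM in control, 79.9, 110.2 and 49.9 CPM in Gata4 KD, and 79.7, 48.0 and 55.3 CPM in Tbx20 KD libraries. Its 3 control libraries were close together, while the knockdown libraries spread to both sides of them. The within-group SD of log2 CPM was 0.52 for Ahrr and 0.40 for Tiparp, larger than that of 93.8% and 87.8% of genes.

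Nqo1 (chr8:107388225-107403206, minus strand) was 166, 102 and 162 CPM in control libraries a, b and c, 129, 167 and 84.5 CPM in Gata4 KD libraries, and 143, 97.1 and 110.5 CPM in Tbx20 KD libraries. As for Cyp1a1, the low libraries were control b, Gata4 KD c and Tbx20 KD b. Its within-group SD of log2 CPM, 0.40, was larger than that of 87.9% of genes. Cyp1b1 (chr17:79701537-79715061, minus strand) behaved otherwise. It was 882, 1004 and 696 CPM in control, 1096, 1119.7 and 1103 CPM in Gata4 KD, and 933, 966 and 979 CPM in Tbx20 KD libraries. All Gata4 KD libraries lay above all others, the Tbx20 KD libraries lay inside the control range, and the within-group SD of log2 CPM was 0.16, with the control group the most uneven.

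**Figure D1:**
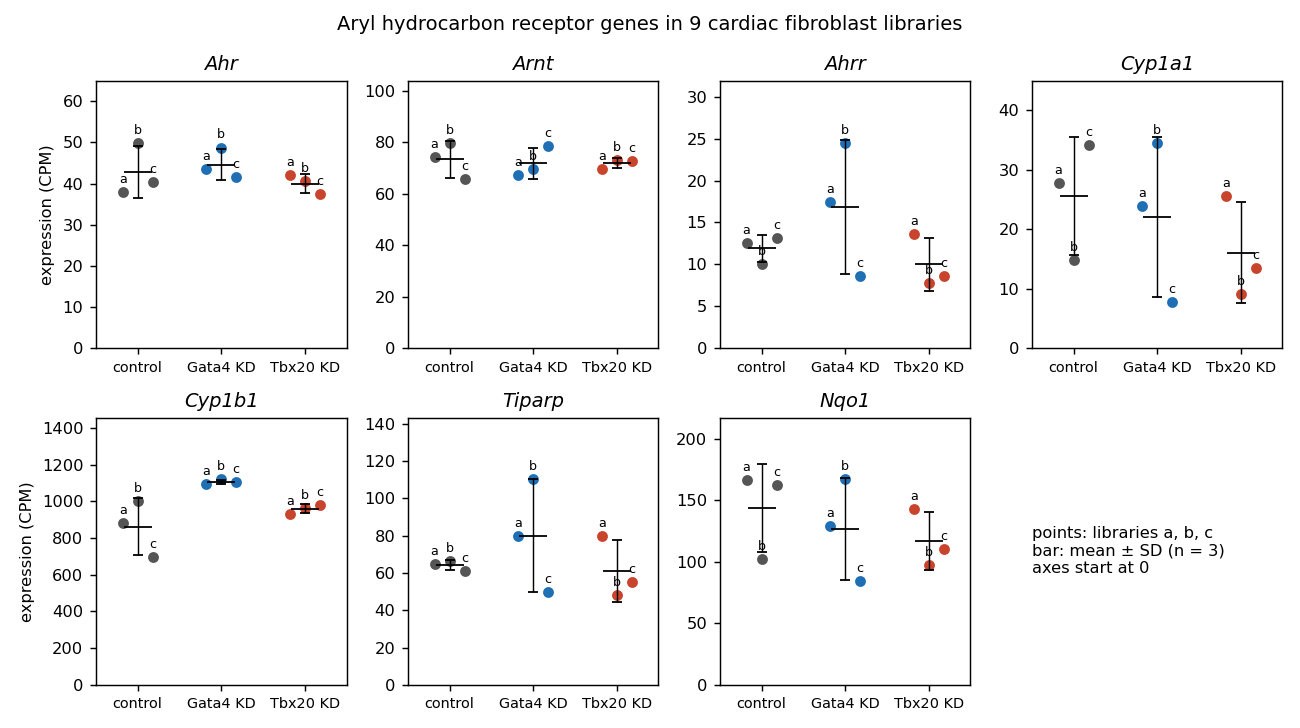
Expression in CPM (y axis, from 0) of the 7 genes in each library (points a, b and c) by group, with mean ± SD (n = 3). Cyp1a1 ranges from 7.77 to 34.6 CPM within Gata4 KD alone, while the Gata4 KD points of Cyp1b1 lie between 1096 and 1119.7 CPM, above all other libraries.

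To ask whether loss of either transcription factor changed these genes, each pair of groups was compared, the 2 comparisons with control sharing the same control libraries. By edgeR's quasi-likelihood test with adjusted p under 0.05, 0 of the 7 genes were called in any comparison, where 0.38% of 14468 genes were called between Gata4 KD and control, 0.00687% of 14547 between Tbx20 KD and control, and 1.44% of 14477 between the knockdowns. At an unadjusted p under 0.05 the counts were 1, 0 and 1, beside 8.54%, 2.69% and 16.7% of all genes tested. By DESeq2 with adjusted p they were 0, 0 and 1, beside 1.51%, 0.0938% and 5.63%, and by edgeR's exact test 0, 0 and 0, beside 1.73%, 0.055% and 5.04%. The gene behind each count of 1 was Cyp1b1. Nothing is read from these counts, because the genes were chosen with their levels by group known.

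Cyp1b1 was 1106 ± 11.9 CPM (SD, n = 3) in Gata4 KD, 861 ± 155 in control and 959 ± 23.6 in Tbx20 KD libraries. The log2 fold change of Gata4 KD was 0.36 (SE 0.13) over control and 0.21 (SE 0.05) over Tbx20 KD, and that of Tbx20 KD over control was 0.17 (SE 0.13). It was the only member whose groups did not overlap, in both comparisons with Gata4 KD, where the groups of 13.8% (against control) and 23.0% (against Tbx20 KD) of all genes tested did not overlap, 6.19% and 12.2% being higher in Gata4 KD. Between Tbx20 KD and control no member was free of overlap, beside 6.74% of all genes.

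For Cyp1a1 the group means were 25.6 ± 9.86 CPM in control, 22.1 ± 13.5 in Gata4 KD and 16.1 ± 8.50 in Tbx20 KD (SD, n = 3). The log2 fold change over control was -0.21 (SE 0.48) for Gata4 KD and -0.65 (SE 0.39) for Tbx20 KD. The first of these turned to 0.22 when a library was left out, being positive without Gata4 KD library c or without control library c, whereas the second stayed between -1.16 and -0.38 under 13 alternative settings. Ahrr had log2 fold changes of 0.50 (SE 0.32) in Gata4 KD and -0.24 (SE 0.21) in Tbx20 KD over control, and of 0.74 (SE 0.37) between the knockdowns. The last was 1.06 (SE 0.24) without Gata4 KD library c and 0.37 (SE 0.35) without Gata4 KD library b. Tiparp differed by 0.32 (SE 0.24), -0.06 (SE 0.17) and 0.39 (SE 0.29) on the log2 scale in the same 3 comparisons, and Nqo1 by -0.18 (SE 0.26), -0.29 (SE 0.20) and 0.12 (SE 0.24).

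Ahr and Arnt differed from control by less than their errors. Ahr had log2 fold changes of 0.06 (SE 0.12) in Gata4 KD and -0.09 (SE 0.12) in Tbx20 KD, and Arnt of -0.03 (SE 0.10) and -0.02 (SE 0.09). Between the knockdowns Ahr differed by 0.16 (SE 0.08). The median of the 7 log2 fold changes was 0.06 in Gata4 KD and -0.09 in Tbx20 KD over control, beside -0.02 and -0.00 over all genes tested, and 0.21 between the knockdowns, beside -0.01.

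**Figure D2:**
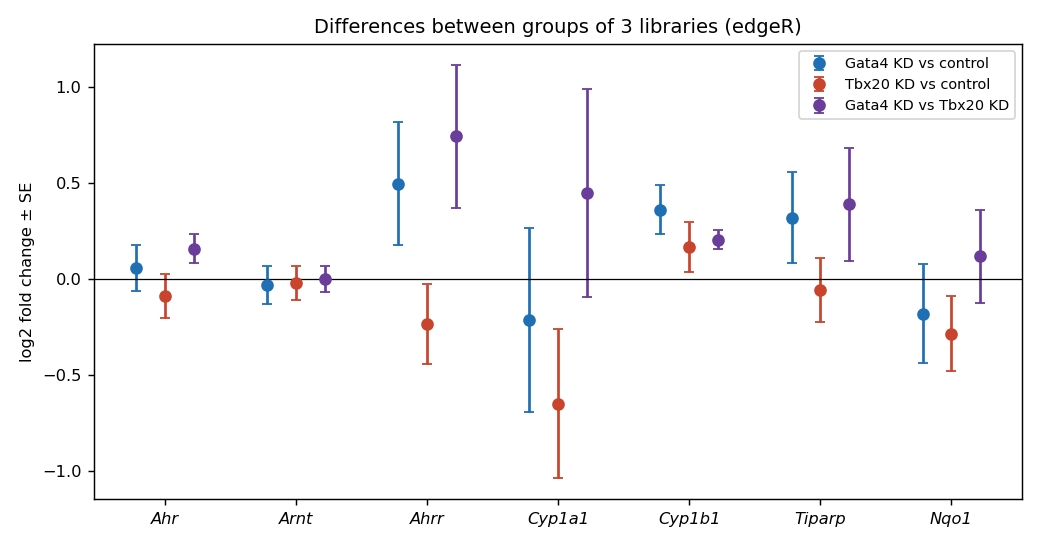
Log2 fold change ± SE (y axis) of each gene in 3 comparisons of 3 libraries against 3 (colours). The widest error bars belong to Cyp1a1 (SE 0.39 to 0.54), and the error bars of Arnt cross 0 in all 3 comparisons.

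Several of the genes were high and low in the same libraries. Within each group the library with the lowest Cyp1a1 was also lowest for Ahrr and Nqo1, namely control b, Gata4 KD c and Tbx20 KD b. Tiparp was lowest in the same libraries of the knockdown groups, and in library c in control. The likeness of genes was measured as Pearson's r of log2 CPM over the 9 libraries, for 21 pairs of the 7 genes. These values describe libraries whose genes share the same RNA preparation, and no p-value is attached to them.

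Nqo1 followed Cyp1a1 most closely, with r = 0.97 and Spearman's rho = 0.97. It stayed at 0.95 without Gata4 KD c and Tbx20 KD b, the libraries farthest from the median of Cyp1a1, and was 0.97 for deviations from the group means. Of 14781 other genes only 4 had a higher r with Cyp1a1. Ahrr followed with r = 0.84 (rho 0.83, 0.77 without those libraries, 0.97 within groups), and Tiparp with r = 0.76 (rho 0.70, 0.54 without those libraries, 0.86 within groups). A higher r with Cyp1a1 was held by 3.11% and 6.24% of genes. Over the 9 libraries the 2 repressors were more like each other than like Cyp1a1, with r = 0.95 between Ahrr and Tiparp (rho 0.93, 0.85 without Gata4 KD b and Tbx20 KD b, 0.95 within groups).

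The receptor itself was less like Cyp1a1 than these 3 genes were. Ahr had r = 0.15 with Cyp1a1 (rho 0.13, 0.07 within groups) and -0.01 with Nqo1. Its r was 0.59 with Tiparp (rho 0.63, 0.50 within groups), 0.46 with Ahrr (rho 0.43, 0.28 within groups) and 0.44 with Cyp1b1 (rho 0.60, 0.48 within groups). Arnt ran the other way, with r = -0.69 (rho -0.55, -0.66 without the 2 libraries, -0.81 within groups). Cyp1b1 had r = -0.38 with Cyp1a1 (rho -0.23, -0.41 within groups), so that the 2 cytochromes of this family did not rise and fall together over these libraries.

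**Figure D3:**
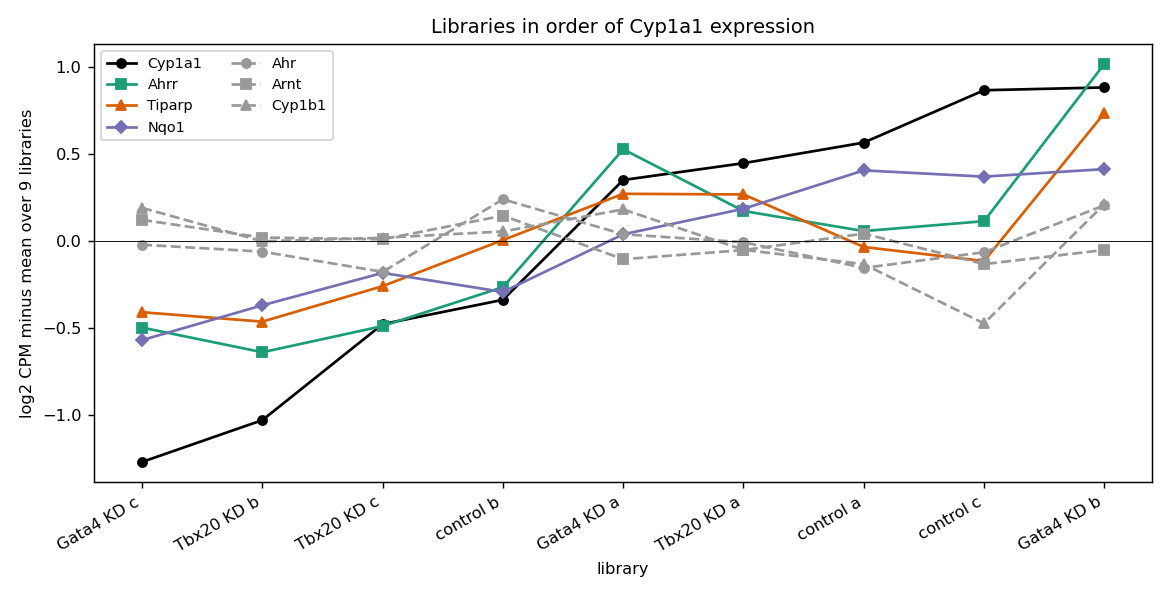
Log2 CPM of each gene minus its mean over 9 libraries (y axis), with libraries ordered by Cyp1a1 from lowest to highest (x axis). Ahrr, Tiparp and Nqo1 (coloured lines) are below their means in the libraries at the left, Gata4 KD c, Tbx20 KD b and Tbx20 KD c, and highest in Gata4 KD b. Of the grey dashed lines, Ahr and Cyp1b1 show no such order and Arnt tends the other way (r = -0.69 with Cyp1a1).

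Among 10071 genes of at least 5 CPM on average, the 5 most like Cyp1a1 were G3bp1 (r = 0.98), an RNA-binding protein of stress granules, Tatdn2 (0.98), Pop1 (0.98), a subunit of RNase P and RNase MRP, Sec23b (0.97), a coat protein of vesicles leaving the endoplasmic reticulum, and Nqo1. Those most like Nqo1 were Esd (0.98), Glipr1 (0.97) and Cyp1a1. Tiparp was most like Stk4 (0.98), Hspa9 (0.97), a mitochondrial chaperone, and Tfrc (0.97), the transferrin receptor. Ahr was most like Rsrc2, Phf20l1 and Mtf2 (0.98, 0.98 and 0.97), and Cyp1b1 most like Stt3b (0.99), which transfers glycans to nascent proteins, Dhx40 (0.98) and Trps1 (0.98).

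Genes of 5 related lists were also set beside Cyp1a1. Of these lists the antioxidant genes controlled by NRF2 had the highest median r. It was 0.72 over 25 genes, and 0.73 within groups, where all other genes had medians of 0.02 and 0.01. Without Gata4 KD c and Tbx20 KD b it was 0.66, beside 0.01 for all other genes. Of the 25 genes 13 (52.0%) had r above 0.7, as did 9.51% of all other genes. They were the haem-degrading enzyme Hmox1, the glutathione synthesis subunit Gclm, the redox enzymes Txnrd1, Srxn1, Gsr and Prdx1, the conjugating enzyme Gsta4, the pentose phosphate enzymes Pgd, Tkt and Taldo1, the exporter Abcc1, and Cbr3 and Ugdh.

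Srxn1 (sulfiredoxin) had the highest r, 0.89, and ranged from 110 CPM in Gata4 KD c to 151 CPM in control a. Taldo1 (r = 0.88) ranged from 149 CPM in Gata4 KD c to 231 CPM in control c. Hmox1 (r = 0.82) ranged from 177 CPM in control b to 282 CPM in Gata4 KD b, and Txnrd1 (r = 0.79) from 327 CPM in Tbx20 KD b to 503 CPM in Gata4 KD b. The lowest libraries of these genes were among the low-Cyp1a1 libraries, and their ranges were narrower than that of Cyp1a1. Not all antioxidant genes ran this way, with r of -0.48 for Ephx1, -0.46 for Mgst1 and -0.44 for Gstm1, and Keap1, the inhibitor of NRF2, at -0.27.

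The other lists had lower medians of r. Further receptor targets had a median r of 0.01 over 17 genes tested. Nfe2l2, which encodes NRF2, and the amino acid transporter Slc7a5 were above 0.7. Socs2 ran against Cyp1a1, with r = -0.96 (-0.97 within groups, -0.93 without Gata4 KD c and Tbx20 KD b). Of all other genes 9.51% were above 0.7 and 8.56% below -0.7. Of 19 hypoxia targets 5 (26.3%) had r above 0.7, the glycolysis genes Pgk1, Ldha, Aldoa, Eno1 and Pfkfb4, and Bnip3 and P4ha1 were below -0.7 (median r 0.39). Within groups the median r of the hypoxia targets was 0.55. There 9 of the 19 were above 0.7, as were 14.2% of all other genes. Among 19 genes of the receptor complex and its partners Src alone was above 0.7, with Epas1 and Ncoa1 below -0.7 (median r -0.17). None of the 8 enzymes of tryptophan and kynurenine metabolism tested was above 0.7, and Maob was below -0.7 (median r -0.18).

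**Figure D4:**
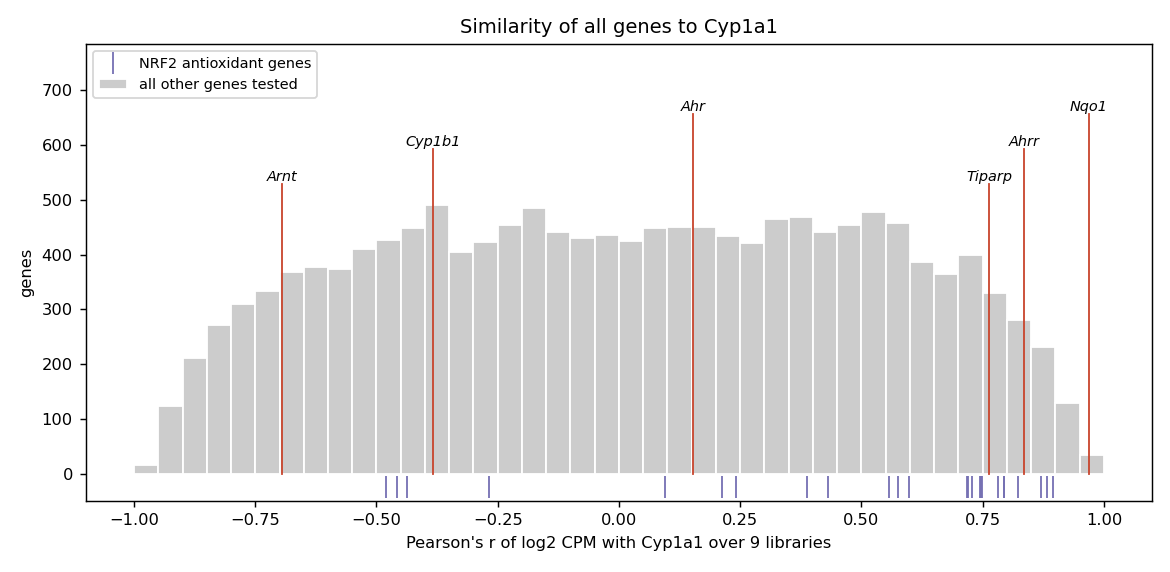
Number of genes (y axis) by Pearson's r of log2 CPM with Cyp1a1 over 9 libraries (x axis, bins of 0.05), with the other 6 genes as red lines and the 25 NRF2 antioxidant genes as ticks under the axis. Nqo1 (0.97), Ahrr (0.84) and Tiparp (0.76) lie at the right, as do 13 of the ticks above 0.7, while Arnt lies at -0.69.

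Other features of the libraries moved with Cyp1a1 and were looked up after its values were seen. The proliferation marker Mki67 was 200.4, 208, 226 and 231 CPM in the 4 libraries with the least Cyp1a1 (Gata4 KD c, Tbx20 KD b, Tbx20 KD c and control b) and 250.2 to 300.3 CPM in the other 5 (r = 0.93, rho 0.87, 0.84 without Gata4 KD c and Tbx20 KD b, 0.96 within groups). The summed level of Mcm2 to Mcm7, subunits of the replicative helicase, had r = 0.78 (rho 0.63, 0.92 within groups). Decorin (Dcn), a matrix proteoglycan among the fibroblast markers, was 177 to 200.1 CPM in the 4 libraries with the least Cyp1a1 and 93.0 to 152 CPM in the others (r = -0.89, rho -0.88, -0.97 within groups). The fibroblast markers had a median r of -0.61 with Cyp1a1, the leukocyte markers -0.47, the endothelial markers -0.56, the smooth muscle and pericyte markers 0.27 and the 6 mesothelial markers tested 0.59. Of the 8 endothelial markers 3 (Cdh5, Emcn and Tek) had r below -0.7. The angiopoietin receptor Tek was 33.5 to 35.7 CPM in the 4 libraries with the least Cyp1a1 and 16.2 to 27.5 CPM in the others. Tek is a large part of the endothelial sum of 41.5 to 61.3 CPM.

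Within groups Cyp1a1 also ran against Tbx20 (r = -0.91) and Gata4 (r = -0.70), although over all libraries r was -0.07 and -0.13. Without Gata4 KD c and Tbx20 KD b r was -0.11 for Tbx20 and -0.41 for Gata4. Such within-group values were not particular to the 2 targets. There the fibroblast markers had a median r of -0.93, and 14.2% of all other genes were above 0.7. Total counts had r = 0.08 with Cyp1a1 (rho 0.0). The part of growth state, culture or cell make-up in the differences between libraries was not tested, and the labels give no animal or culture for each library.

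Genes of the 5 lists, 101 genes that are not members, were also compared between groups. Between Gata4 KD and control 1 of 85 genes tested fell and 0 rose, between Tbx20 KD and control 0 of 88 passed the test, and between the knockdowns 2 of 87 were higher and 2 lower in Gata4 KD (edgeR quasi-likelihood test, p adjusted over all genes tested). Of all genes tested 0.2% rose and 0.18% fell in the first comparison, 0.00687% rose and 0.0% fell in the second, and 0.815% were higher and 0.622% lower in the last. At an unadjusted p under 0.05 the counts were 10, 2 and 22 of the genes tested, where 8.54%, 2.69% and 16.7% of all genes passed, and DESeq2 called 4, 1 and 12, where it called 1.51%, 0.0938% and 5.63% of all genes. Between the knockdowns the share of list genes that passed was above that of all genes by each of these measures. The lists were chosen with earlier results of these data known, so nothing is read from this. Medians of the log2 fold change were near those of all genes in most lists. For further receptor targets they were 0.06, 0.03 and 0.08 in the 3 comparisons, for the receptor complex 0.03, -0.04 and 0.05, for NRF2 genes 0.03, -0.03 and 0.06, for hypoxia targets -0.02, -0.02 and 0.04, and for tryptophan enzymes 0.01, 0.11 and -0.13.

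Scin, which encodes the actin-severing protein scinderin (adseverin) and is known as a receptor target, fell in Gata4 KD. It was 3.24, 2.83 and 3.16 CPM in control libraries a, b and c, 0.410, 0.413 and 0.802 CPM in Gata4 KD libraries, and 2.32, 2.48 and 3.42 CPM in Tbx20 KD libraries. Every Gata4 KD library lay below every other library, at a low level of expression. The log2 fold change was -2.49 (SE 0.29, edgeR adjusted p = 0.0180) against control and -2.32 (SE 0.30, edgeR adjusted p = 0.0198) against Tbx20 KD. Against control the call was lost without Gata4 KD library a or b, without control library a or c, and with the replicate letter as a block (edgeR adjusted p 0.0678 to 0.147, and 0.140 with the block). Against Tbx20 KD it was lost without Gata4 KD a or b or Tbx20 KD b or c (edgeR adjusted p 0.0783 to 0.117). Scin did not follow Cyp1a1 over the libraries (r = -0.11), while the mesothelial markers, lower in Gata4 KD, moved in the same direction as Scin, and their part in its fall was not tested.

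Il6, the cytokine interleukin 6 and also a known receptor target, was 134, 133 and 136 CPM in Gata4 KD libraries a, b and c, 109, 102 and 90.7 CPM in Tbx20 KD libraries, and 87.8, 111 and 77.5 CPM in control libraries. All Gata4 KD libraries were above all others. The log2 difference was 0.42 (SE 0.07, edgeR adjusted p = 0.0405) between the knockdowns and 0.54 (SE 0.13, edgeR adjusted p = 0.178) over control. The first call was lost without Gata4 KD a or b or Tbx20 KD b or c, with library size alone (edgeR adjusted p = 0.0531), with all 9 libraries in one fit (0.149) and with the replicate block (0.0720), the highest adjusted p being 0.180. Over control Il6 was called by DESeq2, by the exact test and without control library b.

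The hypoxia targets Vegfa and Ndrg1 moved apart between the knockdowns. Vegfa, an angiogenic growth factor, was 183, 183 and 173 CPM in Gata4 KD and 145, 135 and 132 CPM in Tbx20 KD libraries, beside 151, 143 and 166 CPM in control. The difference between the knockdowns was 0.39 on the log2 scale (SE 0.06, edgeR adjusted p = 0.0236). Ndrg1, a stress-responsive gene, was 22.1, 21.7 and 26.7 CPM in Gata4 KD, 34.7, 37.9 and 40.3 CPM in Tbx20 KD, and 28.6, 25.4 and 28.0 CPM in control libraries. Its difference was -0.68 (SE 0.10, edgeR adjusted p = 0.0247), with the Tbx20 KD libraries above all others. Both calls were lost without Gata4 KD a or b or Tbx20 KD b or c, where adjusted p reached 0.142 for Vegfa and 0.136 for Ndrg1.

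Several genes had sizeable differences that did not pass the quasi-likelihood test. Egln3, an oxygen-sensing prolyl hydroxylase, was 12.8, 15.6 and 7.77 CPM in Gata4 KD, 6.15, 4.62 and 6.21 CPM in control and 5.46, 4.73 and 4.66 CPM in Tbx20 KD libraries. Its log2 difference was 1.28 (SE 0.24, edgeR adjusted p = 0.0527) between the knockdowns and 1.09 (SE 0.25, edgeR adjusted p = 0.166) over control. Egln3 was called in both comparisons by DESeq2, by the exact test, with no filter on low counts and without Gata4 KD library c, and between the knockdowns also with all 9 libraries in one fit. Slc7a11, the cystine transporter, was 27.1, 44.9 and 24.8 CPM in Gata4 KD and 20.8, 20.3 and 18.3 CPM in control libraries, a log2 difference of 0.71 (SE 0.21, edgeR adjusted p = 0.320). Between the knockdowns Slc7a11 differed by 0.88 (SE 0.24, edgeR adjusted p = 0.128). There it was called by DESeq2, by the exact test and without Gata4 KD library c. Arnt2, a close relative of Arnt, was 27.0, 25.9 and 24.3 CPM in Gata4 KD and 36.0, 30.7 and 35.2 CPM in control libraries, a log2 difference of -0.40 (SE 0.10, edgeR adjusted p = 0.186). In this comparison Arnt2 was called by DESeq2, by the exact test and without control library b, and between the knockdowns by DESeq2. The clock gene Arntl and Hif1a differed between the knockdowns by 0.46 (SE 0.11) and 0.24 (SE 0.06), with edgeR adjusted p of 0.106 and 0.116. DESeq2 called both, and Arntl was also called by the exact test and without Gata4 KD library c. Keap1 and Ftl1 differed between the knockdowns by -0.22 (SE 0.06) and 0.22 (SE 0.06), with edgeR adjusted p of 0.104 and 0.150. They too were called by DESeq2, and Ftl1 also without Gata4 KD library c. The other genes named by rule were Cdkn1b, an inhibitor of the cell cycle, with a difference between the knockdowns of 0.14 (SE 0.06), and the amine-metabolizing enzymes Maob, Maoa and Ddc, with -0.47 (SE 0.22), 0.20 (SE 0.10) and -0.51 (SE 0.31), where edgeR adjusted p was 0.306, 0.330, 0.354 and 0.452.

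**Figure D5:**
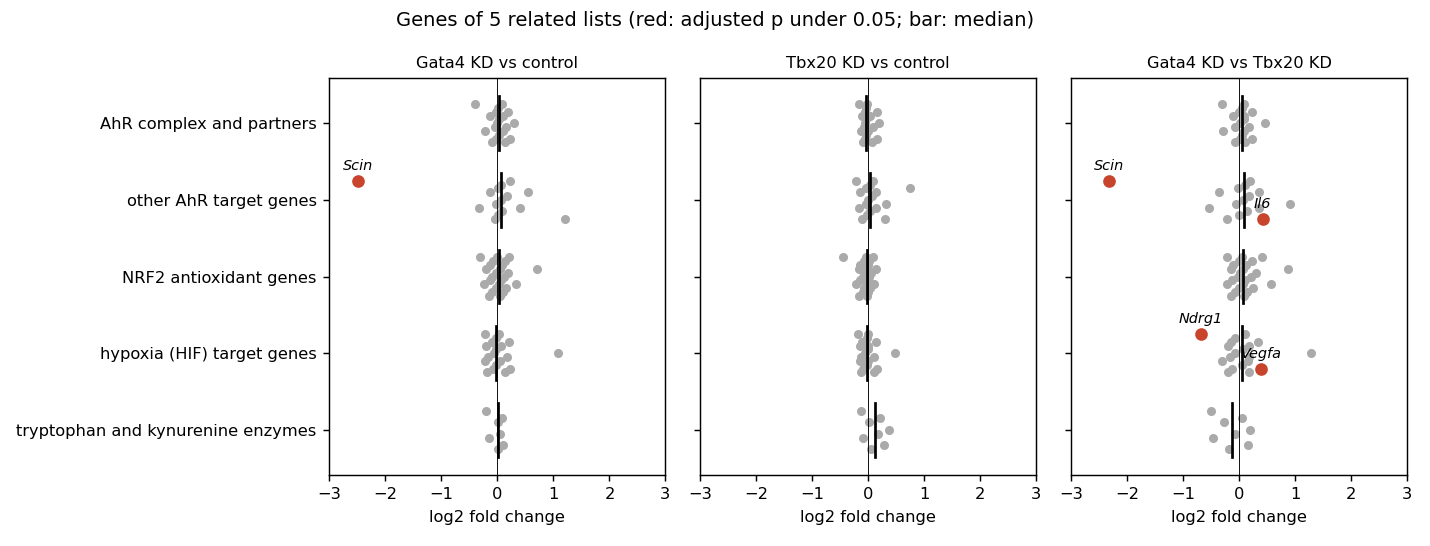
Log2 fold change (x axis) of each tested gene of the 5 lists (rows) in the 3 comparisons (panels), with list medians as bars and genes of adjusted p under 0.05 in red. Scin lies at -2.49 and -2.32 in the panels with Gata4 KD, and Il6, Vegfa and Ndrg1 are marked between the knockdowns.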

How the data were processed

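RNA was measured by sequencing of mRNA libraries (75-base single-end reads) for 9 samples in 3 groups of 3, taken from the guide RNA named in the labels. Per its methods, the study removed low-quality bases, ran RSEM over Bowtie2 alignments to GRCm38 and counted by strand. The submitters' processing notes name mm9, Bowtie and RSEM, so that the build differs between these sources. The deposited values are expected counts for each gene, not normalized and already whole, in which reads that match several genes are divided among them. Gene symbols, positions and exon lengths came from GENCODE M21 on GRCm38 (96.6% of 38924 gene IDs matched, with 0.262% of counts at the others), and upstream bases from RefSeq on GRCm38.p6.

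Each comparison was fitted on its 6 libraries in R 4.3.3 with edgeR 4.0.16 (filterByExpr, TMM, quasi-likelihood F test), with Benjamini-Hochberg adjustment over all genes tested and a threshold of 0.05. Log2 CPM used a prior count of 2. The SE of a log2 fold change is its absolute value divided by the square root of the quasi-likelihood F. It therefore rests on a dispersion moderated over all genes, not on the 6 libraries alone. The tests were first tried on simulated counts. DESeq2 1.42.0, edgeR's exact test, other filters and scalings, a replicate block and leaving out each library were alternatives. Genes that are not members were named by rule, as those past the threshold in each list, or the 3 of smallest p where fewer passed, and the 5 (Cyp1a1) or 3 genes most like a member. The 7 members, the 5 lists and the marker lists were chosen with earlier results of these data known. An exact permutation test of 3 against 3 libraries cannot give p below 0.1, so no such test was run and tests came from the fits over the whole table. Libraries of a group differed beyond counting error (chi-square per degree of freedom 6.12 to 63.4), so that none was the same library counted again. These values cannot tell separate animals from separate preparations of the same culture. The study describes biological replicates, but the labels tie no library to an animal or culture. The p-values set group differences against the spread between these libraries, with dispersions moderated over all genes. Whether they extend to other animals cannot be told from the labels. The result of 1 gene of the lists is not reported here.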

Additional observations from a re-analysis of the deposited data

Results flagged for a closer look

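The effects of the 2 knockdowns differed by the direct test for 4 genes of the lists, given as log2 fold changes of Gata4 KD over Tbx20 KD. Scin differed by -2.32, with all Gata4 KD libraries below 1 CPM. Il6 differed by 0.42, with all Gata4 KD libraries above all others. Vegfa differed by 0.39, with all Gata4 KD libraries above all others. Ndrg1 differed by -0.68, with all Tbx20 KD libraries above all others. Groups of 3 libraries were too small to be searched for outlying samples.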

How the results depend on the processing

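The called differences of Scin (both comparisons), Il6, Vegfa and Ndrg1 kept their sign under the 13 alternatives run for each. Genes changed between Gata4 KD and control numbered 55, and 250 by DESeq2, 121 with no filter, 148 with all 9 libraries in one fit, 5 with the replicate block, 250 by the exact test and 6 (without control a) to 189 (without control b) without 1 library. For Tbx20 KD against control the count was 1, and 12 by DESeq2, 2 with no filter, 2 with the block, 8 by the exact test and 1 to 5 without 1 library. Between the knockdowns it was 208, and 745 by DESeq2, 324 with no filter, 101 with the block, 729 by the exact test and 22 (without Gata4 KD a) to 801 (without Gata4 KD c) without 1 library. With library size alone 202 genes were called, 90 of them higher in Gata4 KD, against 118 of 208 with TMM. Genes of the 5 lists called between Gata4 KD and control numbered 1, and 4 by DESeq2 and by the exact test, 2 with no filter, 0 with the block and 0 to 3 without 1 library. Against control Tbx20 KD had 0, and 1 (Ndrg1) by DESeq2 and by the exact test, and 0 to 0 without 1 library. Between the knockdowns there were 4, and 12 by DESeq2, 8 by the exact test and 0 to 12 without 1 library. The ratio of highest to lowest Cyp1a1 without 1 library ranged from 1.23 to 2.31 in control, from 1.45 to 4.45 in Gata4 KD and from 1.47 to 2.78 in Tbx20 KD. Of 273 alternative log2 fold changes of the 7 genes 255 kept their sign, and the 18 that did not were all from leaving out 1 library. In 11 of 21 comparisons the sign held throughout. Cyp1b1 was called by DESeq2 and Ahrr without Gata4 KD library c, both between the knockdowns. Nothing is read from these calls, because the 7 genes were chosen with their levels by group known.

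The letters a, b and c were shared by the groups, but deviations of same-letter libraries correlated at over 0.1 in only 3 of 9 pairs (r -0.170 to 0.255), so the letters are not taken as pairing. The standard errors of the log2 fold changes of Cyp1a1 were 0.39 to 0.54, which limits what 3 libraries a group can show. The cause of the changes in counts was not tested.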
